A study of Mus with 2 samples.

Results

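The data described here are those of the NF-kB family in mouse bone marrow-derived macrophages (BMDMs) under M2 conditions, with and without the synthetic FXR agonist GW4064. Its 10 genes were the subunits Nfkb1, Nfkb2, Rel, Rela and Relb and the inhibitors Nfkbia, Nfkbib, Nfkbie, Nfkbiz and Tnfaip3. They were found through the transcript names of the array's non-control probes, of which 14 belonged to these genes, among 20060 genes with a matched probe. The BMDMs came from male C57BL6/J mice aged 10 weeks and had been grown for 7 d with M-CSF at 10 ng/mL. Both groups then received 10 ng/mL of IL-4 for 24 h, the control group with DMSO, the solvent of the agonist, and the treated group with 10 µM GW4064. Each group had 1 Agilent 1-colour array. Whether marrow was pooled from several mice was not given in the sources used here.

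NF-kB proteins are transcription factors that act as pairs and switch on genes of inflammation and survival in macrophages. In resting cells IkB proteins hold them in the cytoplasm. Signals from Toll-like, interleukin-1 and tumor necrosis factor receptors activate the IKK kinase complex, which marks IkB for breakdown and lets the pairs enter the nucleus. Several inhibitors are themselves transcribed under NF-kB and close a feedback loop. Much of this control works on proteins, and an array reads transcripts only.

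With 1 array per group there was no test, no replicate error and no p-value, and this sets the precision of every value. The arrays shared 1 slide and 1 scan. Values are given as the processed signal of a probe, which is not scaled between arrays, followed by the log2 difference, GW4064 minus DMSO, after the 75th percentile of each array was set to 0. That percentile was 1209 with DMSO and 1265 with GW4064. A difference of 1.5-fold, or 0.58 on the log2 scale, was used to count genes as apart, and other mentions of higher or lower give only the sign. The spread within an array is given in 2 ways. The first is the SD of the difference over the copies of a probe printed 10 times, with a median of 0.076 over 227 such probes and a 95th percentile of 0.22. The second is the error that the scanner software attached to each spot, about 0.20 for the log2 difference of a bright probe. It was nearly the same for each bright probe named here, so it does not describe a single spot. Neither contains the spread between cultures. All 10 macrophage markers with a probe, among them Csf1r, Adgre1 and Itgam, were well above background on both arrays. Of the M2 genes among them, Arg1 and Retnla had log2 differences of 3.82 and 0.91, Chil3 had 0.066 and Mrc1 had -0.34.

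Most transcripts of the family differed little between the arrays, as did most of all measured genes. Of the 10 genes 9 were measured, each well above background on both arrays, and 0 of the 9 were 1.5-fold or more apart, against 9.94% of the 13532 measured genes (4.39% higher, 5.55% lower), or 5.84% of the 12578 genes with a probe well above background on both arrays. None was 2-fold apart, against 4.75% of all measured genes (2.04% higher, 2.71% lower). Their differences ran from -0.48 for Nfkbie to 0.33 for Nfkbia, with a median of -0.055 beside 0.0068 over all measured genes. For 7 of the 9 the difference was within 0.25 of 0, as it was for 73.3% of all measured genes. With so few genes, 0 of 9 is not a result about the family.

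**Figure D1:**
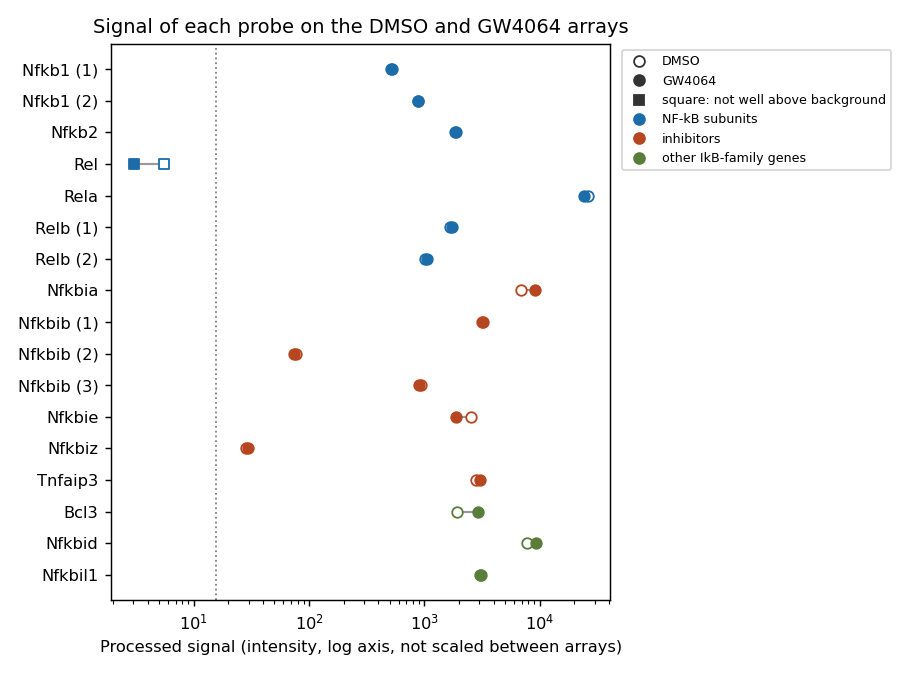
Processed signal (x axis, intensity on a log axis) of each probe for the NF-kB genes and 3 related IkB-family genes (rows) on the DMSO array (open) and the GW4064 array (filled), with squares for the probe that was not well above background and a dotted line at the lower limit of 15.7 on the DMSO array. Numbers in brackets tell probes of 1 gene apart. Most pairs of points overlap, and the visible gaps are those of Nfkbia, Nfkbie, Bcl3, Nfkbid and the dim probe of Rel.

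Rela encodes p65, the subunit that carries the main activation domain of the common p50-p65 pair. Its probe read 26126 with DMSO and 24423 with GW4064, a log2 difference of -0.16. This was the largest difference among the subunits. It was smaller than the software's error of 0.20 and larger than the median SD over copies of a probe, 0.076. Nfkb1 encodes p105, the precursor of p50. One of its probes read 510 and 520, and the other read 881 and 878, with log2 differences of -0.039 and -0.071. Both values were within the SD over copies of a probe.

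Nfkb2 and Relb belong to the non-canonical branch, in which p100, the product of Nfkb2, is cut to p52 and pairs with RelB. The probe for Nfkb2 read 1862 with DMSO and 1870 with GW4064, a log2 difference of -0.060. The probes for Relb read 1673 and 1748, and 1015 and 1063, with log2 differences of -0.0023 and 0.0017, so that scaling the arrays removed the small gap in signal. The mean for Relb was -0.00029 and turned to 0.0019 in the deposited log2 table, so that no direction is given.

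Rel encodes c-Rel, a subunit known from lymphocytes and from activated macrophages and dendritic cells. Its single probe read 5.48 with DMSO and 3.02 with GW4064 and did not clear the background on either array, so that no difference is given. The lowest signals well above background were 15.7 and 15.1. This leaves the level of Rel unmeasured and does not show that the transcript was absent.

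The inhibitors held both ends of the range. Nfkbia encodes IkB-alpha, the inhibitor that NF-kB rapidly induces to end its own response. Its probe read 6903 with DMSO and 9096 with GW4064, a log2 difference of 0.33 or 1.26-fold higher, with a software error of 0.20. Of all 13532 measured genes it had the 1278th highest difference, and 19.7% of them had one at least as large in either direction. With the array's spike-in control RNA as the zero point, the difference of Nfkbia was 0.16. Nfkbie encodes IkB-epsilon, an inhibitor that binds mainly pairs with c-Rel and p65. Its probe read 2518 with DMSO and 1884 with GW4064, a log2 difference of -0.48 or 1.40-fold lower, with a software error of 0.20. It had the 939th lowest difference, and 12.8% of all measured genes had one at least as large in either direction. By the spike-in RNA it was -0.66, which is past 1.5-fold.

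Both of these probes were printed once, and both spots lay near spots with an 8-fold or larger gap between arrays. Within 300 µm there were 2 such spots around Nfkbia and 4 around Nfkbie. The brightest of them had a signal of 157 near Nfkbia and 246 near Nfkbie. Over the other spots well above background within that distance the median log2 difference was 0.033 around Nfkbia, from 27 spots, and 0.081 around Nfkbie, from 24 spots. Leaving out such areas leaves both genes without a value, so whether the area affected their differences was not tested.

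Nfkbib encodes IkB-beta, which NF-kB does not induce as strongly and which is broken down more slowly. Its 3 probes read 3161 and 3256, 939 and 902, and 77.9 and 74.7, with the DMSO signal first. Their log2 differences were -0.023, -0.12 and -0.13, each smaller than its software error. The values of -0.12 and -0.13 were larger than the median SD over copies of a probe, 0.076. Nfkbiz encodes IkB-zeta, a nuclear protein of the family that promotes a subset of late inflammatory genes and is induced by Toll-like receptor ligands. Its probe was dim, with 28.3 for DMSO and 29.4 for GW4064, and the log2 difference of -0.0083 had a software error of 0.35. Tnfaip3 encodes A20, an enzyme that edits ubiquitin chains and dampens signaling upstream of IKK. Its probe read 2796 with DMSO and 3021 with GW4064, a log2 difference of 0.046. For Nfkbiz and Tnfaip3 the sign depended on the setting, with -0.18 and -0.13 by the spike-in RNA and 0.028 for Nfkbiz after quantile normalization. The spike-in zero point moved the median of all measured genes by -0.17.

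**Figure D2:**
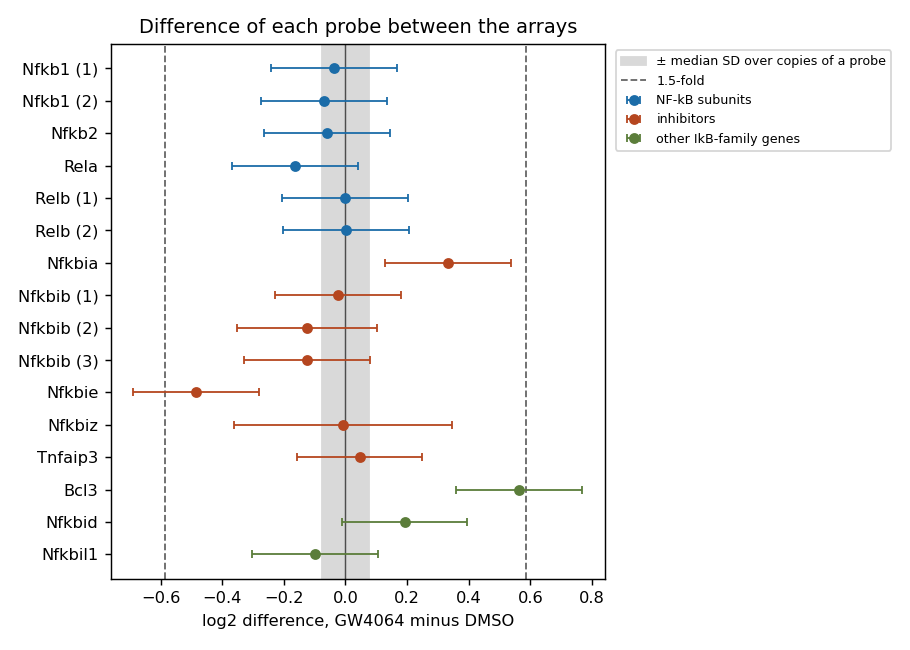
log2 difference, GW4064 minus DMSO (x axis), of each measured probe (rows), with bars for the error estimated by the scanner software, a grey band of 0.076 on either side of 0 for the median SD over copies of a probe, and dashed lines at 1.5-fold. The bars of Nfkbia, Nfkbie and Bcl3 do not reach 0, and each point lies inside the 1.5-fold lines.

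The spread over all probes depends on signal, since dim probes scatter more. All probes measured on both arrays were therefore placed in 20 bins of mean level, each with 1085 or 1086 probes. Of the 13 probes of the family measured on both arrays, 11 lay inside the middle 90% of their bin and 9 inside the middle 50%. The 2 outside were Nfkbia, just above an upper limit of 0.32, and Nfkbie, below a lower limit of -0.28. The probe for Rela lay inside its limits of -0.24 and 0.33.

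**Figure D3:**
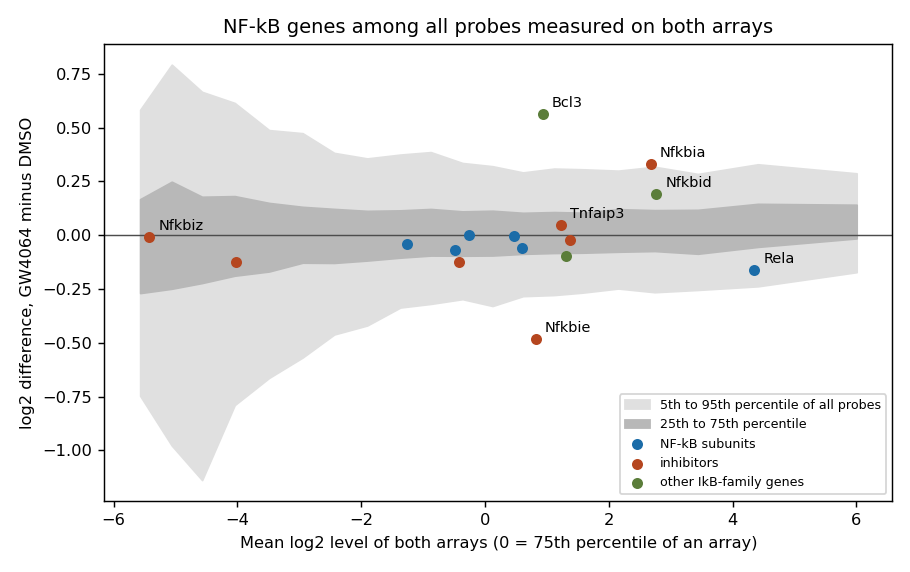
log2 difference, GW4064 minus DMSO (y axis), against the mean log2 level of both arrays (x axis, 0 is the 75th percentile of an array) for the NF-kB genes and 3 related IkB-family genes (points), over the 5th to 95th and 25th to 75th percentiles of all probes measured on both arrays in 20 bins of level (grey). Most points lie in the dark band, Nfkbie (-0.48) lies below the light one, and Bcl3 (0.56) and, narrowly, Nfkbia (0.33) lie above it.

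Of the 3 other genes of the IkB family, Bcl3 stood farthest from 0. It encodes a nuclear protein that binds p50 and p52 pairs and is known to restrain inflammatory genes in macrophages. Its probe read 1903 with DMSO and 2944 with GW4064, a log2 difference of 0.56 or 1.48-fold higher, with 0 spots of 8-fold difference within 300 µm. By the spike-in RNA it was 0.39, and it was the 625th highest of all measured genes. Nfkbid encodes IkB-NS, another nuclear member that is known to hold back induced cytokine genes. It read 7714 and 9221, a log2 difference of 0.19, or 0.018 by the spike-in RNA, and 3 spots of 8-fold difference lay within 300 µm. Nfkbil1, a more distant relative, read 3090 and 3021, with a difference of -0.098.

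Upstream of NF-kB, the genes of the IKK complex were close to 0. Chuk and Ikbkb encode its kinases, and Ikbkg its regulatory subunit. Chuk read 5919 and 6592, a log2 difference of 0.090, and Ikbkb read 1951 and 2059, a difference of 0.012. The probes for Ikbkg had 0.00038 and 0.067, the latter with 8 spots of 8-fold difference within 300 µm, the brightest at 2001 and so above the probe's own signals of 604 and 663. Map3k14 encodes NIK, the kinase of the non-canonical branch, and its probes had -0.061 and -0.059. Chuk, Ikbkb and Ikbkg were all negative by the spike-in RNA, so that no direction is given for the complex. The list of the IKK complex, related kinases and their partners had 13 genes, and 13 were measured. Of these, 12 lay within 0.25 of 0, as did 73.3% of all measured genes. In the list 1 gene was 1.5-fold or more higher and 0 were lower, beside 4.39% and 5.55% of all measured genes.

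The exception was Ikbke, which encodes IKK-epsilon, a relative of the IKK kinases with a known part in interferon responses. Its probe read 325 with DMSO and 1200 with GW4064, a log2 difference of 1.82 or 3.53-fold higher, and the lowest value in any setting was 1.64. It was read at 1 spot, with 1 spot of 8-fold difference within 300 µm, whose brighter signal was 37.0.

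Among 17 adaptors between receptors and IKK, 1 was 1.5-fold or more higher and 0 were lower, beside 4.39% and 5.55% of all measured genes. This was Traf2, which encodes a ubiquitin ligase of tumor necrosis factor receptor signaling. Its probes disagreed. The bright one read 7419 and 7476, a log2 difference of -0.055, and the dim one read 24.7 and 65.2, a difference of 1.34, so that the mean of 0.64 rests on the dim probe. Of 20 ubiquitin regulators 0 were 1.5-fold or more apart in either direction, with a range from -0.37 to 0.52. Of 15 receptors that signal to NF-kB, 2 were 1.5-fold or more lower and 0 higher. Il1r1, the interleukin-1 receptor, read 237 with DMSO and 128 with GW4064, a log2 difference of -0.95. Tnfrsf1b, the second tumor necrosis factor receptor, read 9391 and 6316, a difference of -0.64. The 65 genes of these 4 lists had a median of -0.022.

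**Figure D4:**
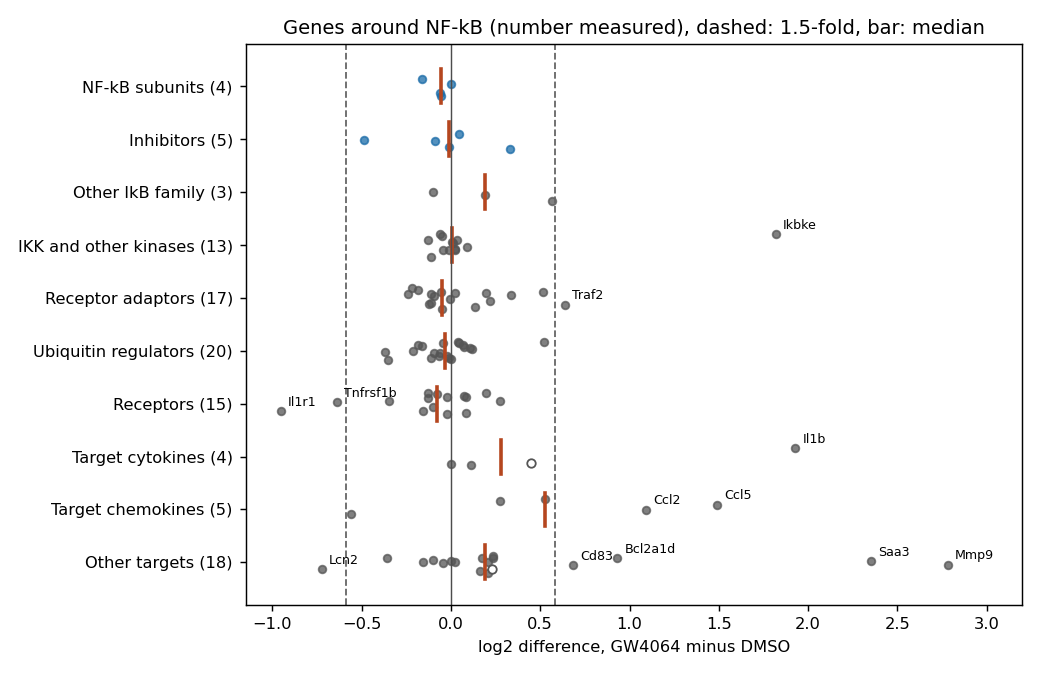
log2 difference, GW4064 minus DMSO (x axis), of each measured gene of the lists around NF-kB (rows, with the number measured), with blue points for the family described here, grey points for other genes, open points for genes measured on 1 array only, red bars for the median of a list and dashed lines at 1.5-fold. The family and the upstream lists centre near 0, with Ikbke (1.82) farthest to the right among them, and several target genes lie beyond 1.5-fold on the right.

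Genes that NF-kB is known to induce in macrophages were set beside the family. Of 40 such genes listed, 37 had a matched probe and 27 were measured, 25 of them on both arrays. Il1a and Ptgs2 passed on the GW4064 array alone. This gives a lower bound for Il1a, and the DMSO signal of Ptgs2 was not well above background. Of the 27, 7 were 1.5-fold or more higher, or 25.9%, and 1 was lower, or 3.70%, beside 4.39% and 5.55% of all measured genes. Their median was 0.21, beside 0.0068 over all measured genes, and 0.036 by the spike-in RNA. With only probes well above background on both arrays it was 0.18. The gene at the median was Vcam1, with -0.18 on the probe measured on both arrays. Its other probe was dim, passed on the GW4064 array alone and had 0.60, a sign set by the filter. The list was chosen with earlier results of these data known, which may have shaped its counts. Since most of these genes also answer to other transcription factors, and the genes measured are those with signal, the counts describe the list only.

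Mmp9, a gelatinase, was read at 10 spots, with means of 437 and 3152. Its log2 difference was 2.78 ± 0.11 (SD over spots of 1 array pair). Il1b, the cytokine interleukin-1 beta, was dim, with means of 20.7 and 82.6 over 7 spots and a difference of 1.93 ± 0.20 (SD over spots), and its difference was 0.68 after a normexp background correction. The chemokine Ccl2, with 10 spots, read 36425 and 81280, a difference of 1.09 ± 0.056 (SD over spots). The chemokine Ccl5 read 446 and 1311, a difference of 1.49.

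Saa3, an acute-phase protein gene, read 31.4 and 168, a difference of 2.35, and 1.17 after the normexp correction, with 4 spots of 8-fold difference within 300 µm. The maturation marker Cd83 read 3878 and 6516, a difference of 0.68. Bcl2a1d, a survival gene, read 43851 and 87517, a difference of 0.93, and it has near-identical copies that this probe may also read. By the spike-in RNA, Cd83 had 0.51 and was then inside 1.5-fold.

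Of the 27 measured targets 21 were above 0 and 6 below, beside 51.6% and 48.2% of all measured genes. The 21 include Il1a and Ptgs2, which passed on the GW4064 array alone, so that their sign was set by the filter. They also include Vcam1, whose probe measured on both arrays had -0.18. Among the targets inside 1.5-fold Ccl4 was the highest, at 0.53, and some were flat or lower. Tnf read 990 and 1036, a difference of 0.0014, and Nos2 read 47.8 and 50.1, a difference of 0.00097. On the lower side Lcn2 read 266 and 168, a difference of -0.72, and Cxcl10, a target shared with interferon, read 44.3 and 31.5, a difference of -0.56. After the normexp correction Lcn2 had -0.52, which is inside 1.5-fold, and Cxcl10 had -0.28. Icam1, an adhesion molecule, had -0.36, and Irf1 had -0.15 on the probe that was measured. Il6, Il23a, Csf2, Csf3, Lta, Cxcl1, Cxcl2, Cxcl3, Cxcl5 and Ccl20 were not well above background on either array.

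Markers of other cells differed between the arrays too, and their part in the values above was not tested. Of 9 measured stromal markers 9 were below 0 and 6 of them 1.5-fold or more lower, beside 48.2% and 5.55% of all measured genes, with summed signals of 40352 for DMSO and 22762 for GW4064. Of 8 measured neutrophil markers 7 were below 0 and 4 of them 1.5-fold or more lower, with sums of 14009 and 9102. Dendritic cell markers were dim, with sums of 79.3 and 177 and 2 of 5 measured. Flt3 passed the background filter on the GW4064 array alone, as did 1 of the 2 Zbtb46 probes, so that their sign is set by the filter, and the Zbtb46 probe measured on both arrays had 0.34. Of 8 lymphocyte markers 3 were measured, and those below 0, Ms4a1 and Klrb1c, each had a probe that passed on the DMSO array alone. The Klrb1c probe measured on both arrays had -0.53, and Cd3e had 0.18. For a bulk culture, fewer cells of a type and less RNA per cell cannot be told apart. Lum, Retnlg, Xcr1, Clec9a, Cd209a, Cd79a, Cd3g, Cd8a and Ncr1 were not well above background on either array.

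Nfkbia, Nfkbie, Rela and Bcl3 kept their sign in each processing setting that gave them a value. The same held for Nfkb1, Nfkb2, Nfkbib, Nfkbid and Nfkbil1, so it was not particular to the larger differences. Nfkbia, Nfkbie, Rela and Bcl3 were each read by 1 probe at 1 spot, so part of their result was fixed in advance. Keeping marked spots, changing the dim filters or taking the brightest probe could only return the main value. Median and spike-in scaling only add a constant. The counts of settings that follow are therefore not counts of independent checks. Nfkbie was lower in the 10 settings that gave it a value, from -0.66 to -0.44, and Nfkbia was higher in 10, from 0.16 to 0.40. Bcl3 was higher in all 11, from 0.39 to 0.57, and Rela was lower in all 11, from -0.34 to -0.16.

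**Figure D5:**
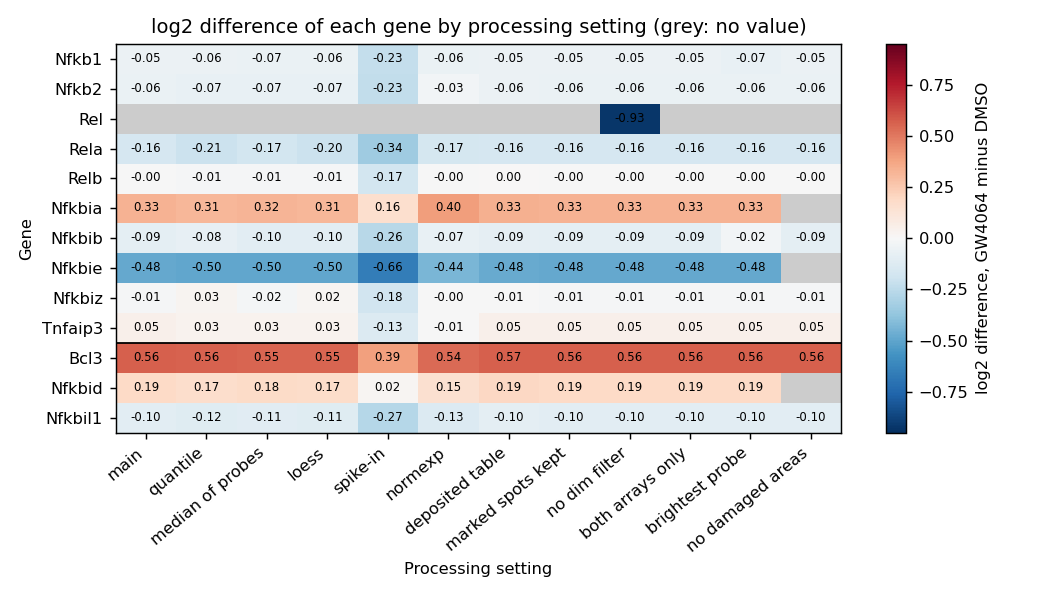
log2 difference, GW4064 minus DMSO (colour and printed value), of each NF-kB gene and of 3 related IkB-family genes (rows, below the line) under each processing setting (columns), with grey where a setting gave no value. Nfkbia, Nfkbid and Bcl3 stay positive wherever they have a value, and Nfkb1, Nfkb2, Rela, Nfkbib, Nfkbie and Nfkbil1 stay negative. The spike-in zero point lowers each gene by the same amount.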

How the data were processed

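Total RNA of 1 culture per condition was hybridised as Cy3-labelled cRNA to Agilent mouse arrays. The authors deposited the intensity of each spot from Feature Extraction 10.7.1.1, background-subtracted and detrended within each array, without scaling between arrays, and a log2 table of both arrays. The normalization of that table is not given in the sources used here. The difference between its columns equalled the one computed here, apart from a constant of 0.0022, within 0.001 for 39020 of 39200 probes.

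For each array, log2 processed signals were centred by subtracting their 75th percentile over non-control spots. Marked spots (non-uniform or outliers among copies) were left out, spots of a probe and probes of a gene were averaged, and no spot was saturated. A probe well above background on 1 array gave a lower bound where its other signal lay below the lowest level well above background. A probe well above background on neither array gave no value. This left 21707 probes measured on both arrays and 2040 on 1. RefSeq transcripts of GRCm38.p6, without versions, named 26445 probes. The array was annotated on mm9, so no coordinates are given, and no sequences were used here.

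The text names the 10 genes, the other IkB-family genes, the IKK genes and Map3k14, genes of the pathway lists (not the marker lists) 1.5-fold or more apart on both arrays, and the 4 largest differences of target genes each way. Marker genes, unmeasured genes, the target genes Ccl4 and Vcam1 and the flat target genes Tnf and Nos2 were named after their values were seen. The members and the 13 other lists (5 of them cell markers) were chosen with earlier results of these data known, and 1 marker gene is not reported here. With 1 difference per gene, no genes of like pattern were sought. Alternatives were quantile, median, loess and spike-in scaling, normexp (offset 50), the deposited log2 table, spot marks, dim filters, the brightest probe, and leaving out spots with 2 or more others 8-fold apart within 300 µm. The calculation was checked on simulated data. Calculations ran in R 4.3.3 with limma 3.58.1 for normexp and in Python 3.11.15 with pandas 2.3.3, numpy 2.4.6 and statsmodels 0.14.6.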

Additional observations from a re-analysis of the deposited data

How the results depend on the processing

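No paired analysis was possible because only 1 array stands for each condition. With the spike-in RNA as zero point, the median of the measured NF-kB genes was -0.23 and that of the upstream genes -0.20, against -0.055 and -0.022, and that of the target genes was 0.036 against 0.21. One NF-kB gene, Nfkbie, was then 1.5-fold or more apart. Under that centring 27.3% of the genes 1.5-fold or more apart were higher, against 44.2%, with 415 higher and 1103 lower. Without a filter on dim probes 1 NF-kB gene was 1.5-fold or more apart, namely Rel, whose probe was near background. After normexp the median of the target genes was 0.099.

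The number of genes 1.5-fold or more higher was 594 and lower 751. It was 1234 and 1423 without the dim filter, 304 and 431 for probes well above background on both arrays, 223 and 312 after normexp, 382 and 492 without damaged areas, and 276 and 367 at 2-fold. Traf2 turned to -0.055 with the brightest probe of each gene. Of 337 values of named genes under 11 alternatives, 293 moved by less than the SD over copies of a probe and 43 by more without a called value changing sign. For genes read by 1 probe at 1 spot, several of the alternatives could not move the value. The spread between cultures was not measured, and dim probes such as that of Nfkbiz are the least precise.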
